A study of Bos taurus with 40 samples.

Results

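The genes described here are the 30 genes of the bovine table that are named CEP followed by digits, the symbol given to many centrosomal proteins. Their horn differences were the reason for looking at them: the group was selected on measured values of CEP162, CEP290 and CEP135, whose higher ipsilateral levels were known beforehand, and on a minimum of 10 reads in at least 5 of the 40 libraries. All 30 names met that minimum, in all 40 libraries, so none lay just outside it. The lowest single count was 17 reads, for CEP55, and the next lowest gene was CEP162 at 22. The table names 32671 genes, of which 20513 met the same minimum. All 30 entered the tests, which covered 20356 genes. Symbols with a further letter or suffix (CEP170B, CEP57L1, CEP85L and a second entry of CEP162) are no members, and CEP20, CEP43, CEP126 and CEP128 are RefSeq symbols of this form that were not analysed here.

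Endometrium, the inner lining of the uterus, was taken from both uterine horns of synchronized heifers (young cows that have not calved) and its RNA was sequenced after library preparation with a stranded mRNA kit. The 8 groups were the ipsilateral and the contralateral horn on days 5, 7, 13 and 16, each with 5 libraries from 5 heifers, 20 heifers in all. In this field the ipsilateral horn is the one beside the ovary that carries the corpus luteum. All heifers shared the synchronization, the design text counts the days from oestrus, and the sample labels call the same days days of pregnancy without naming an embryo. No breed or age is stated. The tissue was a homogenate, so every value mixes luminal and glandular epithelium, stroma, vessels and immune cells.

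The centrosome is a pair of centrioles in a matrix that nucleates microtubules. Centrioles are copied once per cell cycle, starting at a cartwheel of the protein SAS-6 under the kinase PLK4. In resting cells the older centriole docks at the membrane through its appendages and grows a primary cilium, and multiciliated cells of the uterine epithelium make many centrioles for motile cilia. Roles named below come from work in human and mouse cells. They are background and were not measured in these samples.

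Library totals ran from 27025591 to 64364661 reads assigned to genes, the highest in 1 ipsilateral day 5 library, with the next at 41307147. The tissue label was checked with marker genes, in CPM, the read count scaled to library size: the epithelial keratin KRT8 had a lowest value of 106, a median of 178 and a highest of 320, the stromal proteoglycan DCN 2121, 3103 and 4243, and the multiciliated cell factor FOXJ1 18.8, 49.1 and 133. Epithelial, stromal and ciliated cell markers were read in every library. Ipsilateral library 8-1350 of day 5 stood apart in its smooth muscle markers, and its results are given with and without it beside those markers. By their tags, the libraries of a group come from different heifers, and the horns are compared as separate groups. In a homogenate, fewer cells of a type and less RNA per cell cannot be told apart.

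Averaged over the 4 days, 21 of the 30 genes were higher in the ipsilateral horn and 0 were lower (edgeR quasi-likelihood test on counts, Benjamini-Hochberg adjusted p below 0.05 over all genes). Without the 3 genes that led to the choice of the group, the count was 18 of 27. Over all genes tested, 19.6% passed as higher and 18.6% as lower. At an unadjusted p below 0.05, edgeR placed 22 members higher and 0 lower, and DESeq2 called 21 higher and 0 lower. Both counts take in the 3 selected genes. Over all genes DESeq2 called 4033 higher and 4268 lower, and the share at the unadjusted threshold is not given here. The median log2 fold change, ipsilateral over contralateral, was 0.41 for the members and -0.01 for all genes. The plot of horn differences gives each gene with its role.

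**Figure D1:**
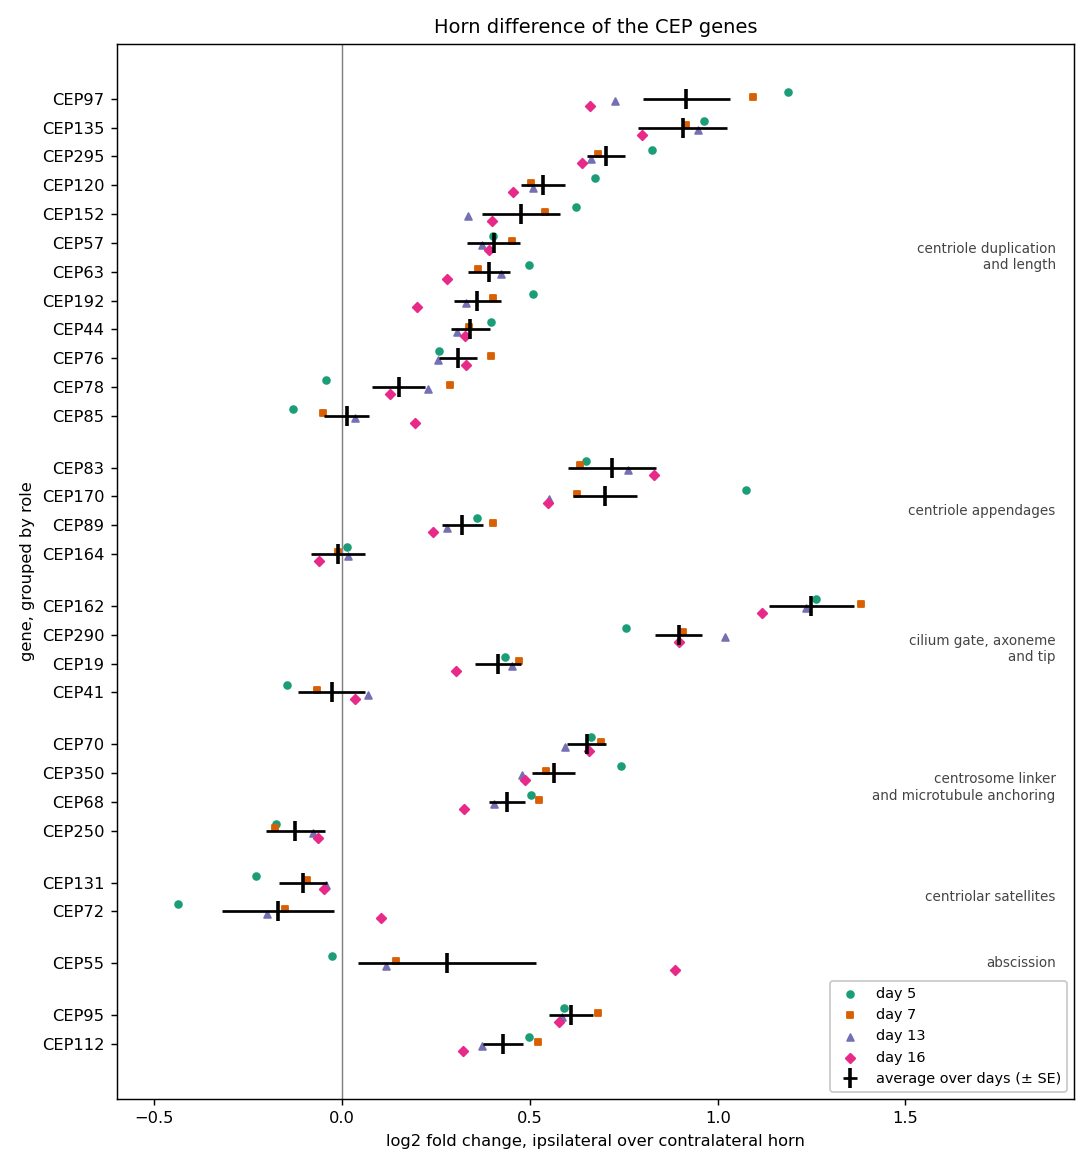
Log2 fold change of the ipsilateral over the contralateral horn for 29 of the 30 CEP genes, grouped by role; coloured points are the 4 days, black marks the average over days with its standard error. The average runs from -0.17 for CEP72 to 1.25 for CEP162, and the 2 satellite genes both lie below 0.

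By role, the genes of centriole duplication and length were higher in 10 of 12 cases, those of the centriole appendages in 3 of 4, and those of the cilium gate, axoneme and tip in 3 of 5. Over all genes 19.6% were higher. These role counts take in the genes on which the group was selected, and the roles were chosen with earlier results of these data known. CEP135 is among the 10 duplication genes. CEP162 and CEP290 are among the 3 cilium genes, and CEP19 is the other. The centrosome linker and anchoring genes were higher in 3 of 4 cases. Neither of the 2 centriolar satellite genes passed, nor did the abscission gene CEP55. CEP95 and CEP112, to which no role is given here, both passed. The differences of single genes follow in that order, with the levels in every library for the 3 genes that led to the choice, the next 5 in size and the 3 lowest.

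CEP135 builds the cartwheel that starts a new centriole. Day 5 gave CEP135 values of 11.5, 12, 13.7, 14.9 and 19.2 CPM in the ipsilateral and 5.36, 5.83, 6.61, 8 and 10.8 CPM in the contralateral horn. CEP135 on day 7 read 8.64, 8.70, 9.02, 9.20 and 17.8 CPM in the ipsilateral libraries and 3.67, 4.05, 4.74, 6.63 and 9.19 CPM in the contralateral ones. On day 5 the horns did not overlap, while on day 7 ipsilateral library 5-117, at 17.8 CPM, stood apart from the other 4. Day 13 gave CEP135 values of 14.7, 15.1, 15.2, 15.8 and 19.4 CPM in the ipsilateral and 6.20, 6.86, 8.55, 9.58 and 10.4 CPM in the contralateral horn. CEP135 on day 16 read 11.2, 11.4, 13, 15.7 and 20.4 CPM in the ipsilateral libraries and 6.35, 6.63, 8, 8.92 and 11.3 CPM in the contralateral ones. The horns were again separate on day 13 and met on day 16, where the lowest ipsilateral value was 11.2 and the highest contralateral value 11.3 CPM. The average log2 fold change was 0.91 ± 0.12 (standard error), a fold of 1.87.

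CEP97 caps the growing end of the centriole together with CCP110. Day 5 gave CEP97 values of 18.3, 21.1, 23.1, 24.5 and 24.8 CPM in the ipsilateral and 7.07, 7.96, 10.2, 10.8 and 13.1 CPM in the contralateral horn. CEP97 on day 7 read 12.9, 16.5, 17.8, 18.5 and 24.4 CPM in the ipsilateral libraries and 5.29, 5.92, 6.02, 9.06 and 15.9 CPM in the contralateral ones. The day 5 groups were fully separate, and on day 7 contralateral library 6-338 reached the ipsilateral range. Day 13 gave CEP97 values of 10.7, 16.1, 16.5, 17.1 and 20.2 CPM in the ipsilateral and 6.51, 8.19, 10.1, 11.8 and 12.1 CPM in the contralateral horn. CEP97 on day 16 read 13.8, 19.1, 23.6, 23.7 and 24.2 CPM in the ipsilateral libraries and 11.8, 12.1, 12.2, 14.4 and 15.7 CPM in the contralateral ones. On days 13 and 16 the horns overlapped through the lowest ipsilateral library of each day. The log2 fold change was 0.92 ± 0.12 on average (adjusted p = 6.96e-08, edgeR), with 1.19 ± 0.23 on day 5 and 0.66 ± 0.23 on day 16.

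CEP295 turns a new centriole into one that can act as a centrosome. Day 5 gave CEP295 values of 98.7, 104, 105, 111 and 119.8 CPM in the ipsilateral and 50.9, 51.9, 56.8, 69.3 and 75.3 CPM in the contralateral horn. CEP295 on day 7 read 89.3, 93.9, 95.3, 98.5 and 116 CPM in the ipsilateral libraries and 53.2, 53.4, 57.5, 67.2 and 76.2 CPM in the contralateral ones. Every ipsilateral library exceeded every contralateral library on these days. Day 13 gave CEP295 values of 85.1, 93.4, 95, 109 and 115 CPM in the ipsilateral and 58.2, 59.6, 60.2, 67.8 and 68.4 CPM in the contralateral horn. CEP295 on day 16 read 97, 106, 108, 113 and 116 CPM in the ipsilateral libraries and 63.8, 67.2, 68.8, 70.4 and 76.7 CPM in the contralateral ones. The separation held on days 13 and 16 as well. Its average log2 fold change of 0.70 ± 0.05 had the lowest adjusted p of the 27 genes tested (4.52e-13, edgeR).

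The other 7 genes of centriole duplication and length that passed had smaller differences. CEP120, which lengthens centrioles, was higher by 0.53 ± 0.06 on the log2 scale (adjusted p = 3.83e-09, edgeR), with a median of 95.5 CPM over 20 ipsilateral and 68.7 CPM over 20 contralateral libraries. CEP152 and CEP63 together recruit the kinase PLK4 to the parent centriole, and CEP192 recruits it too. CEP152 was higher by 0.48 ± 0.10, CEP63 by 0.39 ± 0.06 and CEP192 by 0.36 ± 0.06. CEP57, a partner of CEP63, was higher by 0.40 ± 0.07, CEP44, which binds the centriole lumen protein POC1B, by 0.34 ± 0.05, and CEP76, which limits re-duplication, by 0.31 ± 0.05. Their adjusted p ranged up to 0.000357 (CEP152, edgeR). CEP85, which helps to activate PLK4, stood at 0.01 ± 0.06 (adjusted p = 0.901) and CEP78, which binds a ubiquitin ligase, at 0.15 ± 0.07 (adjusted p = 0.0911). CEP78 passed in 2 of the 40 fits that each left out 1 library, and with the library total as a covariate (adjusted p = 0.0461).

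**Figure D2:**
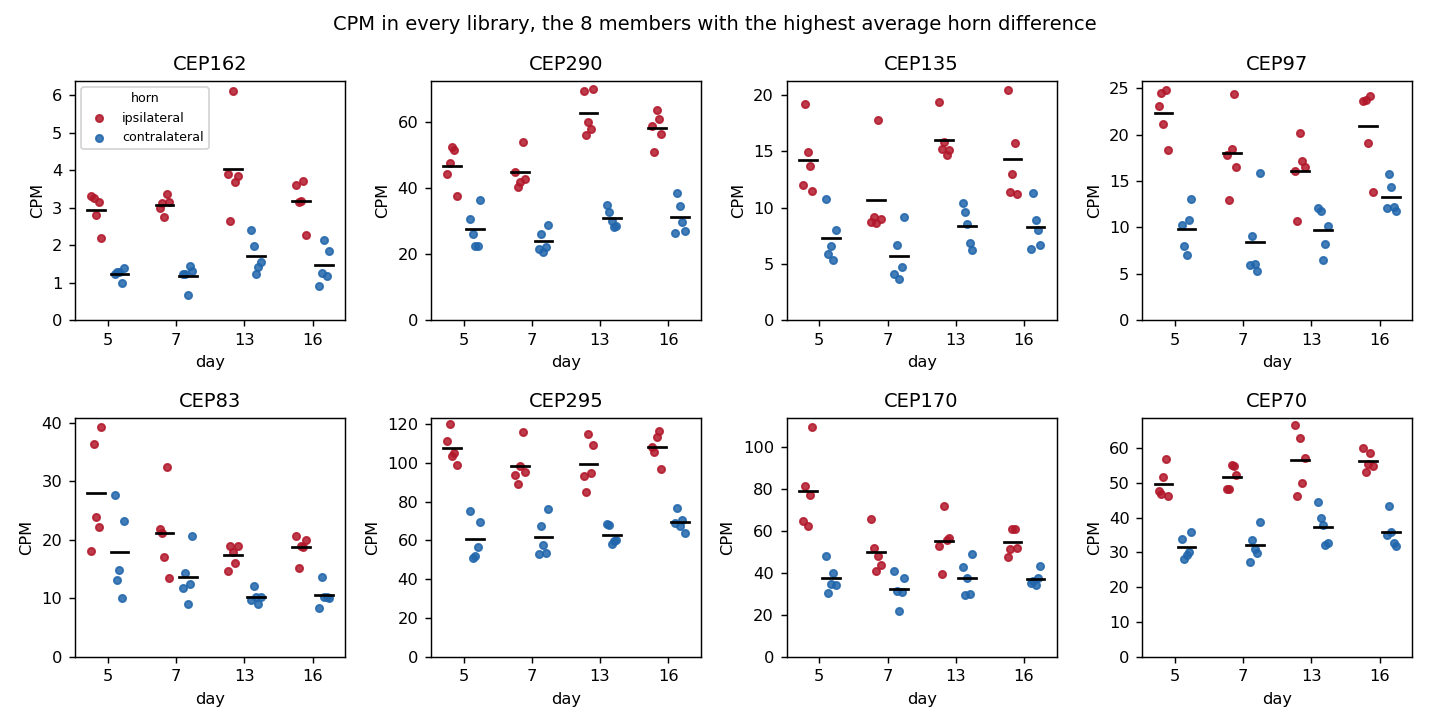
Level in CPM (read count scaled to library size) in every library by day for the 8 genes with the highest average horn difference; red points are ipsilateral, blue points contralateral, bars are group means (n = 5). CEP162, CEP290, CEP295 and CEP70 show no overlap of the horns on any of the 4 days.

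Among the appendage genes, CEP83 is the base of the distal appendages that dock the centriole at the membrane. Day 5 gave CEP83 values of 18.1, 22.2, 23.9, 36.3 and 39.3 CPM in the ipsilateral and 10.1, 13.2, 14.9, 23.2 and 27.7 CPM in the contralateral horn. CEP83 on day 7 read 13.4, 17, 21.2, 21.9 and 32.4 CPM in the ipsilateral libraries and 9.09, 11.7, 12.5, 14.4 and 20.6 CPM in the contralateral ones. On both days the horns overlapped, and the spread within a horn was wide. Day 13 gave CEP83 values of 14.7, 16.1, 17.9, 19 and 19 CPM in the ipsilateral and 8.97, 9.65, 10.2, 10.2 and 12.1 CPM in the contralateral horn. CEP83 on day 16 read 15.1, 18.8, 18.9, 20 and 20.7 CPM in the ipsilateral libraries and 8.39, 10.1, 10.2, 10.2 and 13.7 CPM in the contralateral ones. On days 13 and 16 every ipsilateral library was above every contralateral one. The average log2 fold change was 0.72 ± 0.12 (adjusted p = 6.03e-06, edgeR).

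CEP170 sits on the subdistal appendages, where microtubules are anchored. Day 5 gave CEP170 values of 62.4, 64.6, 77, 81.3 and 109.6 CPM in the ipsilateral and 30.5, 34.2, 34.7, 40.1 and 48 CPM in the contralateral horn. CEP170 on day 7 read 40.8, 44, 48.1, 51.9 and 65.7 CPM in the ipsilateral libraries and 21.6, 30.9, 31.6, 37.4 and 41 CPM in the contralateral ones. The day 5 groups were separate, with ipsilateral library 8-1350 the highest of all 40. On day 7 the lowest ipsilateral value, 40.8 CPM, lay just below the highest contralateral value, 41 CPM. Day 13 gave CEP170 values of 39.4, 53, 55.9, 56.5 and 71.7 CPM in the ipsilateral and 29.5, 29.8, 37.7, 42.7 and 48.8 CPM in the contralateral horn. CEP170 on day 16 read 47.5, 51.5, 51.9, 60.8 and 60.9 CPM in the ipsilateral libraries and 34.2, 35.3, 36.2, 37.5 and 43.3 CPM in the contralateral ones. Separation returned on day 16, while on day 13 the lowest ipsilateral value lay among the contralateral ones. CEP170 was higher by 0.70 ± 0.08 on average (adjusted p = 2.91e-08, edgeR) and by 1.07 ± 0.17 on day 5. In the same fit it passed on day 13 (0.55 ± 0.17, adjusted p = 0.046, edgeR). On day 16, despite the separate ranges, it did not (0.55 ± 0.17, adjusted p = 0.0551, edgeR).

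The 2 other appendage genes differed from each other in their values. CEP89, a distal appendage protein, was higher by 0.32 ± 0.05 (adjusted p = 1.14e-05, edgeR). CEP164, which sits on the same appendages and recruits the kinase TTBK2, had a log2 fold change of -0.01 ± 0.07 (adjusted p = 0.928), with medians of 46.6 and 44.8 CPM in the ipsilateral and contralateral libraries.

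The cilium genes held the gene with the largest difference of the 30. CEP162 binds the end of the axoneme microtubules and helps to assemble the transition zone at the cilium base. Day 5 gave CEP162 values of 2.20, 2.80, 3.14, 3.26 and 3.31 CPM in the ipsilateral and 0.982, 1.22, 1.27, 1.28 and 1.38 CPM in the contralateral horn. CEP162 on day 7 read 2.75, 3, 3.13, 3.14 and 3.37 CPM in the ipsilateral libraries and 0.662, 1.23, 1.24, 1.31 and 1.45 CPM in the contralateral ones. Day 13 gave CEP162 values of 2.65, 3.67, 3.83, 3.90 and 6.10 CPM in the ipsilateral and 1.24, 1.42, 1.56, 1.97 and 2.39 CPM in the contralateral horn. CEP162 on day 16 read 2.26, 3.16, 3.18, 3.60 and 3.71 CPM in the ipsilateral libraries and 0.919, 1.18, 1.26, 1.84 and 2.14 CPM in the contralateral ones. The horns did not overlap on any day, and ipsilateral library 5-167 on day 13 was the highest of all. The average log2 fold change was 1.25 ± 0.11, a fold of 2.38. The table has a second entry of the same name with more reads, a median of 597.5 against 78.5, and how the deposited counting shared reads between them is not stated in the labels. That entry was higher by 0.81 ± 0.09, and the sum of both by 0.85 ± 0.09. The sum lies below the averages of CEP97, CEP135 and CEP290, so the largest difference holds for the CEP162 row alone.

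CEP290 is the main structural protein of the transition zone, mutated in ciliopathies. Day 5 gave CEP290 values of 37.7, 44.3, 47.7, 51.5 and 52.5 CPM in the ipsilateral and 22.4, 22.5, 26.1, 30.7 and 36.5 CPM in the contralateral horn. CEP290 on day 7 read 40.3, 42, 42.7, 44.8 and 54.1 CPM in the ipsilateral libraries and 20.6, 21.5, 22.1, 26.2 and 28.8 CPM in the contralateral ones. Day 13 gave CEP290 values of 56, 58, 60.2, 69.5 and 70 CPM in the ipsilateral and 28.3, 28.5, 30.1, 32.8 and 35 CPM in the contralateral horn. CEP290 on day 16 read 50.9, 56.3, 58.7, 61 and 63.7 CPM in the ipsilateral libraries and 26.3, 26.9, 29.7, 34.6 and 38.4 CPM in the contralateral ones. Here too no contralateral library reached the ipsilateral range of its day, although on day 5 the lowest ipsilateral value, 37.7 CPM, lay close to the highest contralateral value, 36.5 CPM. The average log2 fold change was 0.90 ± 0.06, a fold of 1.86.

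CEP19, which brings intraflagellar transport to the cilium base through the GTPase RABL2, was higher by 0.41 ± 0.06 (adjusted p = 1.1e-06, edgeR). CEP41, which is needed for tubulin glutamylation in the cilium, had -0.03 ± 0.09 (adjusted p = 0.846).

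In the group that links and anchors, CEP70 interacts with gamma-tubulin and helps to organise microtubules. Day 5 gave CEP70 values of 46.1, 46.7, 47.7, 51.6 and 56.7 CPM in the ipsilateral and 28.2, 29.1, 30.1, 33.9 and 35.9 CPM in the contralateral horn. CEP70 on day 7 read 48.1, 48.3, 52.2, 54.7 and 55 CPM in the ipsilateral libraries and 27.3, 29.7, 30.9, 33.5 and 38.8 CPM in the contralateral ones. The horns were separate on both days. Day 13 gave CEP70 values of 46.1, 50, 57, 62.8 and 66.7 CPM in the ipsilateral and 32.1, 32.8, 37.8, 39.8 and 44.6 CPM in the contralateral horn. CEP70 on day 16 read 53, 54.8, 55.5, 58.5 and 59.9 CPM in the ipsilateral libraries and 31.8, 32.7, 35.1, 35.9 and 43.2 CPM in the contralateral ones. They were separate on days 13 and 16 too, by a narrow margin on day 13. CEP70 was higher by 0.65 ± 0.05 on average (adjusted p = 2.11e-12, edgeR). CEP350, which anchors microtubules at the centrosome, was higher by 0.56 ± 0.06 (adjusted p = 6.29e-10) and CEP68, a fibre protein of the linker between the centrioles, by 0.44 ± 0.05 (adjusted p = 5.54e-09).

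CEP250, the protein to which the linker fibres attach, did not pass. Day 5 gave CEP250 values of 27.6, 34.8, 39.6, 44.2 and 52.1 CPM in the ipsilateral and 39.5, 39.8, 44.2, 46 and 54.6 CPM in the contralateral horn. CEP250 on day 7 read 36.2, 40.9, 41, 43.6 and 47.2 CPM in the ipsilateral libraries and 42.1, 43.6, 46.8, 48.9 and 55.4 CPM in the contralateral ones. Day 13 gave CEP250 values of 42.9, 46.4, 47.1, 48.4 and 50.3 CPM in the ipsilateral and 43.7, 45.2, 45.9, 50.2 and 63.5 CPM in the contralateral horn. CEP250 on day 16 read 41.4, 46.1, 49.3, 60 and 83.6 CPM in the ipsilateral libraries and 46.3, 47.2, 55.9, 65.4 and 78.5 CPM in the contralateral ones. The horns overlapped on every day, and the highest values of both horns were read on day 16. Its average log2 fold change was -0.12 ± 0.08 (adjusted p = 0.229, edgeR).

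CEP131 is carried in centriolar satellites, the granules that supply proteins to the centrosome. Day 5 gave CEP131 values of 22.1, 26.9, 30.1, 30.2 and 30.9 CPM in the ipsilateral and 30.9, 31.1, 31.8, 33.5 and 37.1 CPM in the contralateral horn. CEP131 on day 7 read 22.7, 27.8, 28.5, 29.2 and 32.1 CPM in the ipsilateral libraries and 23.5, 26, 31.4, 33.7 and 35.2 CPM in the contralateral ones. On day 5 the ipsilateral libraries all lay below the lowest contralateral value, by a margin within the rounding, and on day 7 the horns overlapped. Day 13 gave CEP131 values of 27.3, 34.5, 36.5, 39.7 and 41.9 CPM in the ipsilateral and 30.7, 33.7, 37.9, 39 and 44.2 CPM in the contralateral horn. CEP131 on day 16 read 30, 31.9, 34.1, 41.8 and 46.1 CPM in the ipsilateral libraries and 33.5, 35.8, 39.3, 40.3 and 41.1 CPM in the contralateral ones. On days 13 and 16 the values were interleaved. The average log2 fold change was -0.10 ± 0.06 (adjusted p = 0.207, edgeR).

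CEP72, another satellite protein, had the lowest average of the 30 genes. Day 5 gave CEP72 values of 3.45, 4.84, 5.49, 7.95 and 10 CPM in the ipsilateral and 6.99, 8.04, 8.18, 9.72 and 10.1 CPM in the contralateral horn. CEP72 on day 7 read 4.47, 5.59, 6.46, 6.64 and 14.3 CPM in the ipsilateral libraries and 4.33, 6.68, 7.28, 8.12 and 15.2 CPM in the contralateral ones. The horns overlapped, with 1 high library in each horn on day 7. Day 13 gave CEP72 values of 1.93, 1.94, 2.29, 3.71 and 3.85 CPM in the ipsilateral and 2.24, 2.51, 2.66, 3.30 and 5.06 CPM in the contralateral horn. CEP72 on day 16 read 2.95, 4.03, 4.10, 4.26 and 4.27 CPM in the ipsilateral libraries and 3.08, 3.28, 3.86, 3.88 and 4.15 CPM in the contralateral ones. The values of these days ran from 1.93 to 5.06 CPM and the horns again overlapped. The log2 fold change was -0.17 ± 0.15 on average (adjusted p = 0.399, edgeR), from -0.44 ± 0.30 on day 5 to 0.10 ± 0.30 on day 16.

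Of the remaining genes, CEP95 was higher by 0.61 ± 0.06 (adjusted p = 1.67e-10, edgeR) and CEP112 by 0.43 ± 0.05 (adjusted p = 5.64e-08). The medians of CEP95 were 165.5 CPM over the ipsilateral and 105.4 CPM over the contralateral libraries. CEP55, which recruits the membrane-cutting ESCRT machinery at the end of cell division, had 0.28 ± 0.24 (adjusted p = 0.385). It was the most variable member, with a median coefficient of variation within groups of 43.6%.

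Day by day, 20 of the 30 genes were higher in the ipsilateral horn on day 5 (17 of the 27), against 12.3% of all genes, and 0 were lower, against 10.4%. On day 7 the counts were 19 (16 of 27) and 0, against 7.52% and 4.2%. On day 13 they were 14 (11 of 27) and 0, against 4.52% and 1.2%, and on day 16 they were 10 (7 of 27) and 0, against 3.87% and 0.663%. At an unadjusted p below 0.05, edgeR placed 21, 22, 20 and 19 members higher and 0 lower on the 4 days, and DESeq2 called 20, 19, 16 and 14 higher and 0 lower. These counts are of all 30 genes. Over all genes DESeq2 called 2663, 1640, 1080 and 961 higher and 2438, 1425, 698 and 451 lower. The median log2 fold change of the members was 0.50, 0.46, 0.37 and 0.33 on days 5, 7, 13 and 16. The split over all genes on day 13, 921 higher and 244 lower, became 814 and 393 with DESeq2's median-ratio size factors in edgeR, under which 12 members were higher and 0 lower.

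Whether the horn difference itself changed with day was tested with 1 term for the 4 differences. It passed for 0 members, for 0 at an unadjusted p below 0.05 and for 0.0% of all genes (572 at an unadjusted p below 0.05, edgeR). This test was not run with DESeq2. The smaller counts on the later days are therefore not shown to be smaller differences.

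Of the 27 genes that did not lead to the choice of the group, 6 passed on each of the 4 days, CEP295, CEP70, CEP95, CEP120, CEP350 and CEP68. The same was found for 3.09% of all genes. In the fits that left out each library of a day in turn, CEP295, CEP70 and CEP95 passed on all 4 days every time. CEP120 did not pass without ipsilateral library 8-275 on day 13 (adjusted p = 0.054, edgeR) and in 4 of 10 fits on day 16. CEP350 failed in 2 of 10 fits on day 16, with adjusted p = 0.0683 without ipsilateral library 2-068. CEP68 failed without contralateral library 5-167 on day 13 (adjusted p = 0.0534) and in all 10 fits on day 16. For 2 of the 27, CEP295 and CEP70, every ipsilateral library was above every contralateral library of its day on all 4 days, which held for 1.6% of all genes.

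Counts of single days moved with single libraries. On day 13 the count was 9 without contralateral library 5-167 or without ipsilateral library 8-275. Over all genes 634 and 635 were higher in these fits, in place of 921. On day 16 the member count was 5 without ipsilateral library 2-068 or without contralateral library 8-245, and 6 without contralateral library 2-068. Over all genes 480, 441 and 535 were higher in these fits, in place of 787. With only the libraries of the day in the fit, 10 members passed on day 7, and 1184 of all genes were higher in place of 1531. For the average over days, the count stayed between 21 and 22 over the 40 fits, and all 21 genes, the 3 that led to the choice among them, kept their call.

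Of the library measures compared, the share of short RNAs passed between the horns and the library total and mitochondrial share did not. The total came closest on day 13, with a ratio of 0.856, ipsilateral to contralateral (exact permutation p = 0.0238, two-sided, 0.0544 adjusted over 16 tests). Reads in microRNA and tRNA genes, short RNAs that an mRNA kit does not target, made up 0.0112% ± 0.00093 of the ipsilateral and 0.00885% ± 0.000567 of the contralateral reads on day 5 (SD, n = 5; ratio 1.27, exact permutation p = 0.00794, two-sided, 0.0212 adjusted over 16 tests). The ratio was 1.29 on day 7 and 1.25 on day 13 with the same p, the smallest that 252 arrangements allow, and 1.18 on day 16 (exact p = 0.0635, adjusted 0.113). With this share as a covariate, 14 members were higher on average, with 2057 genes called in place of 7768. CEP162, CEP290 and CEP135, on which the group was selected, are among the 14. Over all genes, 1279 were higher and 778 lower in this fit, in place of 3990 and 3778. The median standard error of the members grew from 0.063 to 0.108 and their median log2 fold change was 0.35. By day, 10, 5, 1 and 4 members passed. Its part in the horn difference of the members was not tested beyond this fit.

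**Figure D3:**
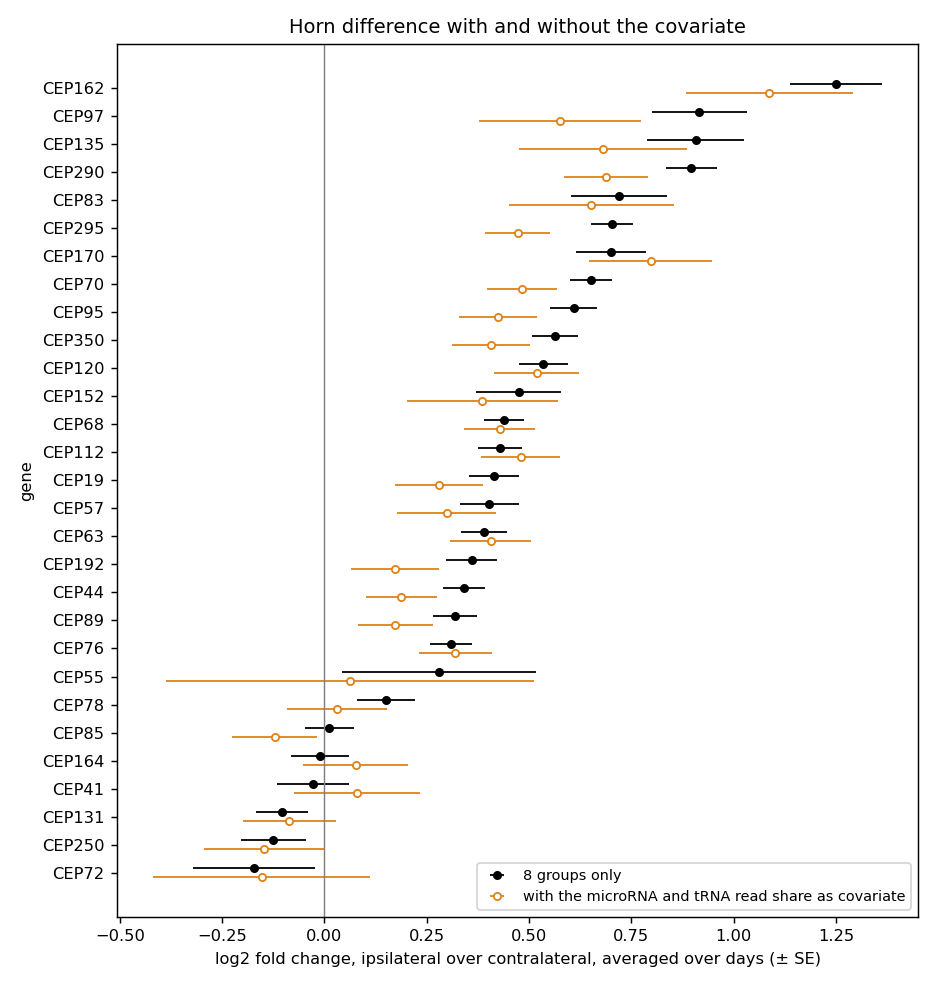
Average log2 fold change of the ipsilateral over the contralateral horn with its standard error for 29 of the 30 CEP genes, in the fit on the 8 groups (black) and in the fit that adds the share of microRNA and tRNA reads (orange, open). Over all 30 genes, 25 values are above 0 in the first fit and 26 in the second, with wider errors in the second.

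In that fit CEP162 stood at 1.09 ± 0.20, CEP170 at 0.80 ± 0.15, CEP290 at 0.69 ± 0.10 and CEP135 at 0.68 ± 0.21 on the log2 scale. CEP295 fell from 0.70 to 0.47 ± 0.08 and still passed (adjusted p = 0.000139, edgeR). CEP97 had 0.58 ± 0.20 and did not pass (adjusted p = 0.0573), and neither did CEP19, CEP57, CEP152, CEP44, CEP89 and CEP192, whose adjusted p lay between 0.0947 and 0.351.

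Markers of the cell types of the endometrium were counted in the fit on the 8 groups, where 19.6% of all genes were higher and 18.6% lower. Of 16 epithelium markers 0 were higher and 11 lower in the ipsilateral horn, with a median log2 fold change of -0.33, led by MUC1 at -0.57 ± 0.17. Their summed level ran from 1344 to 1935 CPM in the ipsilateral and from 1961 to 2568 CPM in the contralateral horn on day 5, and the ranges overlapped on day 7 (2077 to 2674 against 2220 to 3112), day 13 (2108 to 2984 against 2302 to 3419) and day 16 (1926 to 2738 against 2459 to 2899). Of 12 stroma markers 0 were higher and 6 lower, led by the collagen COL1A1 at -0.60 ± 0.12. The summed ranges of stroma in CPM were 23513 to 34061 ipsilateral and 31316 to 52561 contralateral on day 5, 12631 to 24685 and 18854 to 35451 on day 7, 14866 to 19573 and 13565 to 29125 on day 13, and 13308 to 20053 and 17413 to 23487 on day 16. Of 10 endothelium markers 2 were lower, of 14 immune cell markers 2 were lower, and of 12 smooth muscle markers 2 were higher and 1 lower. These counts are near or below the shares of all genes. The summed smooth muscle markers, those of the uterine wall under the endometrium, read 7812 CPM in ipsilateral library 8-1350 of day 5, against 1507 to 1677 CPM in the other 4 libraries of its group and 1224 to 2143 CPM in the contralateral horn. The horns overlapped on days 7, 13 and 16, from 764 to 2045 CPM. Without that library, 18 members were higher on day 5 in place of 20, as CEP83 (adjusted p = 0.144, edgeR) and CEP57 (adjusted p = 0.122) lost their call, and the average over days kept its 21. Over all genes 2207 were higher on day 5 in that fit, in place of 2510. CEP170, highest of all in that library, stood at 0.93 on day 5 without it. No epithelium, stroma, smooth muscle or endothelium marker was at 0 in any library. The part of these markers in the horn difference of the CEP genes was not tested.

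Multiciliated cells hold many centrioles, and dividing cells duplicate theirs. The shares of all genes beside their counts are again 19.6% higher and 18.6% lower. Of 25 mitosis genes 3 were higher and 0 lower, and the 3 were TOP2A, CENPF and ECT2. Of 26 genes of motile cilia tested 3 were higher, DNAH11, CCDC39 and RFX3, and 0 lower, with a median log2 fold change of -0.17. Their summed level overlapped between the horns on every day, from 309 to 549 CPM in the ipsilateral and 325 to 850 CPM in the contralateral horn on day 5, for example. At an unadjusted p below 0.05, edgeR gave 0 epithelium and 1 stroma marker as higher, and 0 genes of the mitosis and motile cilia lists as lower. The shares of all genes at that unadjusted threshold are not given here. DESeq2 was not compared for these lists.

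Other genes of the centrosome and the primary cilium were counted on the same fit, from lists that hold no CEP gene. Centriolar satellite genes were higher in 11 of 13 cases and lower in 0, with CCDC66 at 0.75 ± 0.06 and the satellite scaffold PCM1 at 0.63 ± 0.07, whereas the satellite members CEP131 and CEP72 did not pass. Of 20 genes of centriole duplication and length 14 were higher and 1 lower, among them the cartwheel protein SASS6 at 0.67 ± 0.08 and CCP110, the partner of CEP97, at 0.63 ± 0.08. In the pericentriolar matrix list 5 of 14 were higher and 6 lower, in the subdistal appendage list 4 of 10 higher and 3 lower, and in the distal appendage list 3 of 7 higher and 1 lower. For the cilium, the transition zone list had 5 of 20 higher and 2 lower, intraflagellar transport 9 of 26 and 2, and the BBSome 4 of 9 and 1. OFD1 and C2CD3 are counted in both the satellite and the duplication list, and BBS4 in both the satellite and the BBSome list. The shares over all genes were 19.6% and 18.6%, as above. The plot of list shares sets these counts side by side.

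**Figure D4:**
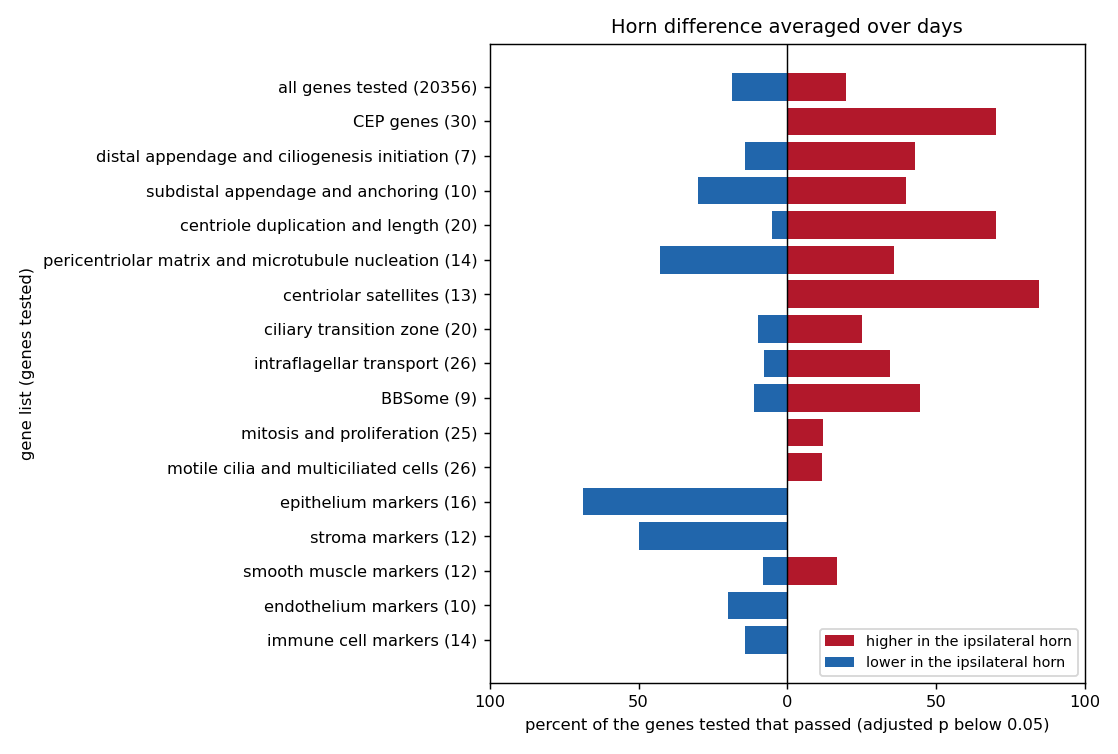
Percent of the genes tested in each list that were higher (red, to the right) or lower (blue, to the left) in the ipsilateral horn on average over the days at an adjusted p below 0.05, with the number of genes tested in brackets. The 30 CEP genes have 70.0% higher and 0.0% lower, beside 19.6% and 18.6% of all genes, and the epithelium markers have bars on the lower side only. The CEP bar includes the 3 genes on which the group was selected. Without them 18 of 27 were higher.

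Between the days, the horns were followed separately, so that each step compares different heifers. From day 5 to 7, 4 members were higher and 3 lower in the ipsilateral horn, against 15.9% and 14.8% of all genes, and 3 were higher and 3 lower in the contralateral horn, against 10.1% and 9.65%. These shares are near those of all genes. CEP95 was higher in both horns, by 0.68 ± 0.12 and 0.59 ± 0.12 on the log2 scale (adjusted p = 4.17e-05 and 0.000419, edgeR), and CEP152 was lower in both, at -0.95 ± 0.21 and -0.87 ± 0.21. CEP63 and CEP85 passed as higher in both horns. CEP63 missed the threshold in the ipsilateral horn without library 6-338 of day 7 (adjusted p = 0.12), and CEP85 in the contralateral horn without library 2-1337 of day 7 (adjusted p = 0.0882).

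From day 7 to 13, 7 members were higher and 3 lower in the ipsilateral horn, against 14.5% and 15.3% of all genes. In the contralateral horn 9 were higher and 3 lower, against 15.8% and 17.1%. The same 3 were lower in both horns, CEP55, CEP72 and CEP85, and 6 were higher in both, CEP68, CEP19, CEP44, CEP63, CEP290 and CEP112.

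CEP55 had the largest change of any member in this step. Day 5 gave CEP55 values of 4.57, 7.23, 13.2, 14.4 and 17.1 CPM in the ipsilateral and 9.20, 9.41, 11.6, 13.5 and 13.8 CPM in the contralateral horn. CEP55 on day 7 read 4.26, 5.55, 8.99, 9.67 and 21.7 CPM in the ipsilateral libraries and 2.84, 3.82, 7.96, 10.8 and 20 CPM in the contralateral ones. Both days showed a wide spread in both horns, up to 21.7 CPM. Day 13 gave CEP55 values of 0.589, 0.712, 0.820, 1.02 and 1.58 CPM in the ipsilateral and 0.540, 0.810, 0.944, 0.981 and 1.05 CPM in the contralateral horn. CEP55 on day 16 read 0.629, 0.696, 1, 1.06 and 4.07 CPM in the ipsilateral libraries and 0.641, 0.708, 0.770, 0.928 and 0.979 CPM in the contralateral ones. After day 7 a single library, 5-137 of the ipsilateral horn on day 16, exceeded 1.58 CPM. From day 7 to 13 the log2 fold change was -3.42 ± 0.51 in the ipsilateral and -3.39 ± 0.51 in the contralateral horn (adjusted p = 2.74e-06 and 2.44e-06, edgeR), a level 0.0935 and 0.0952 times that of day 7.

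CEP72, whose values stand above, fell by 1.45 ± 0.31 and 1.40 ± 0.30 on the log2 scale over the same step (adjusted p = 0.000357 and 0.000439, edgeR). CEP85 helps to activate PLK4 in centriole duplication. Day 5 gave CEP85 values of 26.4, 30.8, 33.2, 33.5 and 35.1 CPM in the ipsilateral and 30.4, 31.2, 36.4, 37.3 and 38.8 CPM in the contralateral horn. CEP85 on day 7 read 33.9, 41.4, 41.8, 47.1 and 52.1 CPM in the ipsilateral libraries and 35.2, 44.6, 45.2, 45.6 and 53.3 CPM in the contralateral ones. Day 5 ran from 26.4 to 38.8 CPM and day 7 from 33.9 to 53.3 CPM over both horns. Day 13 gave CEP85 values of 19.4, 19.7, 20.9, 22.9 and 28.9 CPM in the ipsilateral and 20.4, 21.3, 21.4, 21.4 and 24.6 CPM in the contralateral horn. CEP85 on day 16 read 18.8, 20.5, 22.7, 25.7 and 27.1 CPM in the ipsilateral libraries and 17.6, 19.9, 20.3, 21.2 and 21.4 CPM in the contralateral ones. No library of day 13 reached the range of day 7 in its horn. The log2 fold change was -0.95 ± 0.12 in the ipsilateral and -1.04 ± 0.12 in the contralateral horn (adjusted p = 1.32e-07 and 2.25e-08, edgeR).

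**Figure D5:**
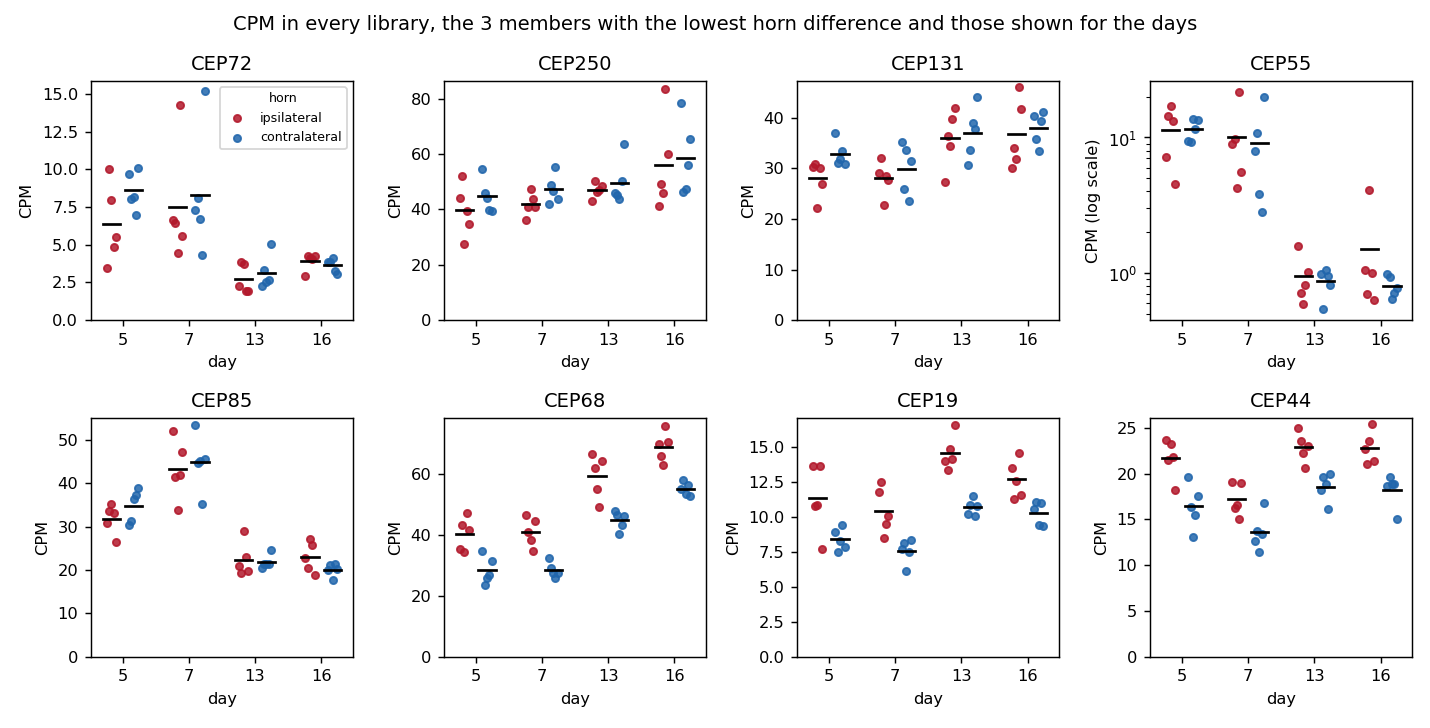
Level in CPM (read count scaled to library size) in every library by day for CEP72, CEP250 and CEP131, the 3 genes with the lowest horn difference, and for the genes named for the step from day 7 to 13; red points are ipsilateral, blue contralateral, bars are group means (n = 5), and the axis of CEP55 is logarithmic. CEP55, CEP72 and CEP85 lie lower on days 13 and 16 in both horns, and CEP68 lies higher.

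CEP68 had the highest rise from day 7 to 13, by the mean of both horns, of the genes that passed in both. Day 5 gave CEP68 values of 34.6, 35.6, 41.6, 43.4 and 47.2 CPM in the ipsilateral and 23.5, 25.9, 26.8, 31.6 and 34.9 CPM in the contralateral horn. CEP68 on day 7 read 34.7, 38.3, 41.2, 44.8 and 46.6 CPM in the ipsilateral libraries and 25.9, 27.6, 27.6, 29.3 and 32.4 CPM in the contralateral ones. The ranges of these 2 days overlapped in each horn. Day 13 gave CEP68 values of 49.3, 55.1, 62, 64.3 and 66.8 CPM in the ipsilateral and 40.5, 43.5, 46.3, 46.6 and 47.8 CPM in the contralateral horn. CEP68 on day 16 read 63, 66.1, 70, 70.6 and 76 CPM in the ipsilateral libraries and 52.8, 53.5, 55.2, 56.5 and 58.2 CPM in the contralateral ones. In each horn all values of day 13 exceeded those of day 7. The log2 fold change from day 7 to 13 was 0.53 ± 0.10 in the ipsilateral and 0.65 ± 0.10 in the contralateral horn (adjusted p = 6.35e-05 and 2.67e-06, edgeR).

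CEP19 rose over the same step. Day 5 gave CEP19 values of 7.75, 10.8, 10.9, 13.7 and 13.7 CPM in the ipsilateral and 7.48, 7.87, 8.28, 8.93 and 9.47 CPM in the contralateral horn. CEP19 on day 7 read 8.49, 9.50, 10.1, 11.8 and 12.5 CPM in the ipsilateral libraries and 6.14, 7.51, 7.73, 8.15 and 8.33 CPM in the contralateral ones. Values of these 2 days overlapped within each horn. Day 13 gave CEP19 values of 13.4, 14, 14.2, 14.9 and 16.6 CPM in the ipsilateral and 10.1, 10.2, 10.8, 10.9 and 11.5 CPM in the contralateral horn. CEP19 on day 16 read 11.3, 11.6, 12.6, 13.5 and 14.6 CPM in the ipsilateral libraries and 9.35, 9.41, 10.6, 11 and 11.1 CPM in the contralateral ones. Again day 13 lay above day 7 in both horns without overlap. The log2 fold changes were 0.48 ± 0.12 and 0.50 ± 0.12 (adjusted p = 0.00242 and 0.00158, edgeR).

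CEP44 dipped on day 7. Day 5 gave CEP44 values of 18.2, 21.5, 21.8, 23.2 and 23.7 CPM in the ipsilateral and 13.1, 15.5, 16.4, 17.6 and 19.6 CPM in the contralateral horn. CEP44 on day 7 read 15, 16.2, 16.6, 19 and 19.1 CPM in the ipsilateral libraries and 11.4, 12.6, 13.4, 13.7 and 16.8 CPM in the contralateral ones. In the ipsilateral horn the fall from day 5 to 7, -0.34 ± 0.10, passed (adjusted p = 0.0128, edgeR), and in the contralateral horn it did not (adjusted p = 0.0545). Day 13 gave CEP44 values of 20.6, 22.3, 23, 23.6 and 25 CPM in the ipsilateral and 16.1, 18.2, 18.9, 19.6 and 20 CPM in the contralateral horn. CEP44 on day 16 read 21, 21.4, 22.7, 23.6 and 25.4 CPM in the ipsilateral libraries and 15, 18.6, 18.9, 18.9 and 19.6 CPM in the contralateral ones. From day 7 to 13 it rose by 0.42 ± 0.10 and 0.45 ± 0.10 in the ipsilateral and contralateral horn (adjusted p = 0.002 and 0.00086), with some overlap in the contralateral horn.

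CEP63 rose by 0.45 ± 0.11 and 0.39 ± 0.11 over this step. CEP290 rose by 0.49 ± 0.12 in the ipsilateral and 0.37 ± 0.12 in the contralateral horn, where the call was lost without library 4-1314 of day 13 (adjusted p = 0.0601, edgeR). CEP112 rose by 0.29 ± 0.11 and 0.44 ± 0.11, and its ipsilateral call was lost without library 8-275 of day 13 (adjusted p = 0.112). CEP152, CEP350 and CEP89 passed as higher in the contralateral horn and CEP131 in the ipsilateral horn, all 4 of them lost in at least 2 of the 10 fits that left out a library. No difference between the horns in these steps was shown, since the test of a changing horn difference passed for 0 genes.

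Markers of division moved with this step. Of 25 mitosis genes 23 were lower in the ipsilateral and 24 in the contralateral horn on day 13 than on day 7 and 0 were higher, with median log2 fold changes of -2.59 and -3.00, and the proliferation marker MKI67 had -3.99 ± 0.60 in the ipsilateral horn. Their summed level was 676 to 1251 CPM on day 7 and 278 to 464 CPM on day 13 in the ipsilateral horn, and 643 to 1216 and 243 to 412 CPM in the contralateral horn. No mitosis gene was at 0 in any library. On day 16 the sums were 180 to 382 and 184 to 263 CPM. Markers of other cells were counted over the step as well. Of all genes, 14.5% were higher and 15.3% lower in the ipsilateral horn, and 15.8% and 17.1% in the contralateral horn. These shares are at the adjusted threshold, and none is given for the unadjusted one. The counts of lower motile cilia genes and of higher smooth muscle markers were near these shares. Of 16 epithelium markers 4 were higher in both horns, led by the tight junction gene CLDN4 at 2.29 ± 0.26 and 2.68 ± 0.26 on the log2 scale, and 4 and 3 were lower in the ipsilateral and contralateral horn. Of 26 motile cilia genes 4 were lower and 0 higher in each horn, with median log2 fold changes of -0.73 and -0.54, and at an unadjusted p below 0.05 edgeR gave 11 and 9 as lower and 0 as higher. Their sum ran from 396 to 1410 CPM on day 7 and from 284 to 603 CPM on day 13 in the ipsilateral horn, and from 313 to 1373 and 230 to 924 CPM in the contralateral horn, and MCIDAS, CCNO and PIFO of that list were at 0 in some libraries. Of 10 endothelium markers 2 and 3 were higher and 0 lower (5 and 6 higher and 0 lower at an unadjusted p below 0.05), and of 12 smooth muscle markers 2 were higher in each horn. Stroma had 1 marker higher in each horn and 1 and 2 lower, and 0 of 14 immune markers passed, also at an unadjusted p below 0.05. The part of dividing or other cells in the levels of the CEP genes over this step was not tested. Of the 20 genes of centriole duplication and length without the CEP name, 6 were higher and 1 lower in the ipsilateral horn over the step and 7 and 1 in the contralateral horn, and POC1A was the lower gene in both, at -1.39 ± 0.15 and -1.41 ± 0.15.

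From day 13 to 16, 0 members passed in either horn, against 0.452% higher and 0.57% lower of all genes in the ipsilateral and 0.432% and 0.899% in the contralateral horn. At an unadjusted p below 0.05, edgeR placed 1 member higher and 1 lower in the ipsilateral and 1 higher and 0 lower in the contralateral horn. The share of all genes at that threshold is not given here. DESeq2 called 0 in either horn. CEP55 had a log2 fold change of 0.66 ± 0.49 over this step in the ipsilateral horn, where library 5-137 reached 4.07 CPM, and of -0.10 ± 0.50 in the contralateral horn.

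Single libraries were the highest or the lowest of their group of 5 for many members at once. Contralateral library 6-338 on day 7 was the highest for 17 members and the lowest for 0, and contralateral library 3-155 on day 16 the highest for 16 and the lowest for 1. On day 5, contralateral libraries 1-315 and 8-1350 were each the highest for 14. Ipsilateral library 5-117 on day 7 was the highest for 15 members and the lowest for 4. Contralateral library 5-117 of that day was the lowest for 14 and the highest for 2. The shared tag does not show that these libraries come from 1 heifer. Over all genes, their deviations from the group means correlated at -0.258, and the closest match of ipsilateral 5-117 was contralateral 6-338. Ipsilateral library 8-1350 on day 5 was the lowest for 14 members and the highest for 6. In the RefSeq gene order, matched by symbol for 29 of the 30 genes, 0 pairs of them were direct neighbours.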

How the data were processed

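RNA of endometrium was sequenced in 40 libraries made with a stranded mRNA kit, per the labels' protocols, 5 for each of 8 day and horn groups. Per the submitters' processing notes, reads were checked with FastQC, aligned to the bovine build UMD3.1 with HISAT2 and assigned to genes with featureCounts (versions and the strand setting of the counting are not given in the sources used here). The authors deposited raw read counts per gene, used as they stand except for 1 row of the mitochondrial genome, left out of library sizes and tests (mean share by group from 0.119% to 0.49%). Groups and heifer tags come from the titles. Genes were tested with edgeR 4.0.16 (quasi-likelihood F test, TMM factors, filterByExpr, all 40 libraries, 8 groups, no block), with Benjamini-Hochberg adjustment over all genes and a threshold of 0.05. Levels are CPM with TMM factors, and changes are log2 fold changes with standard errors. Levels are not compared between genes, since no gene lengths were used. Shares of reads were compared with exact permutation tests. The fit was checked on simulated data with known changes. Of genes changed 1.5-fold it found 58.2% in the average over days, 34.3% on day 5 and 31.3% from day 7 to 13 in the ipsilateral horn. Of genes changed 4-fold it found 90.9%, 84.8% and 80.3%. A gene that did not pass is therefore not shown to be unchanged. The members, roles and 15 lists were chosen with earlier results of these data known, so CEP162, CEP290 and CEP135 carry no horn p-value. Genes shown in every library were those 3, the next 5 and the 3 lowest by average horn difference, and the 3 highest and 3 lowest (mean of the horns) among those that passed from day 7 to 13 in both horns, with CEP55. Alternatives were DESeq2 1.42.0, its size factors in edgeR, no filter on low counts, the tag as replicate block, library total or small-RNA share as covariate, only the libraries compared and each library left out. The sum of both CEP162 entries was added after seeing the data. The values of 1 member are not reported here, though it is in the counts. No sequences or coordinates of UMD3.1 were used.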

Additional observations from a re-analysis of the deposited data

Results flagged for a closer look

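In 13 of the 240 combinations of a CEP gene and a group, 1 library stood far from the other 4, by a test at the 95% level, which flags about 1 in 20 by chance. The others of each group are given after the value, all in CPM. CEP135 read 17.8 in ipsilateral library 5-117 on day 7, against 8.64 to 9.2, and 19.4 in 4-1314 on day 13, against 14.7 to 15.8. CEP72 read 14.3 in the same day 7 library 5-117, against 4.47 to 6.64, and 2.95 in ipsilateral library 2-068 on day 16, against 4.03 to 4.27. CEP55 read 4.07 in ipsilateral library 5-137 on day 16, against 0.629 to 1.06. CEP162 read 0.662 in contralateral library 4-064 on day 7, against 1.23 to 1.45, and CEP152 4.63 in contralateral library 6-338 on that day, against 2.18 to 2.7. CEP164 read 31.3 in ipsilateral library 4-184 on day 5, against 46.9 to 53, and 57.7 in contralateral library 8-275 on day 13, against 41.9 to 44.9. In the latter library CEP85 read 24.6, against 20.4 to 21.4. CEP57 read 41.8 in contralateral library 8-1350 on day 5, against 22.3 to 27.6. On day 16, CEP44 read 15 in contralateral library 8-245, against 18.6 to 19.6, and CEP95 read 137 in contralateral library 3-155, against 99.4 to 107.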

How the results depend on the processing

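The count of members that passed in the average over days was 21 with each scaling, with no filter, with the replicate block and with DESeq2, 22 with the library total as a covariate and 14 with the microRNA and tRNA share as a covariate. With that share the counts were 10, 5, 1 and 4 on days 5, 7, 13 and 16, against 20, 19, 14 and 10, and 6 in place of 12 from day 7 to 13 in the contralateral horn. Over all genes, 1294, 190, 108 and 252 were higher on the 4 days, in place of 2510, 1531, 921 and 787. For that step 5498 genes were called in place of 6692. With only the libraries compared, 10 members passed on day 7 and 3 in place of 6 from day 5 to 7 in the contralateral horn. Over all genes, 1184 were higher on day 7 in place of 1531, and 2981 were called in that step in place of 4028. Leaving out 1 library gave 16 to 21 on day 5, 14 to 21 on day 7, 9 to 14 on day 13 and 5 to 10 on day 16. For the day steps it gave 5 to 9 and 4 to 9 from day 5 to 7 and 8 to 13 and 10 to 16 from day 7 to 13, in the ipsilateral and contralateral horn. No value that passed in either fit changed its direction under any alternative run.

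The tags in the titles would pair the horns of a heifer. The deviations of 2 libraries with 1 tag from their group means correlated above 0.1 across genes in 5 of 20 tags (median -0.0464), and in 5 of 20 the other library of the tag was the closest match. For the remaining tags the closest match carried another tag. No contralateral library was the closest match of more than 1 ipsilateral library. On day 5, ipsilateral 3-175 was closest to contralateral 1-315, and ipsilateral 1-315 to contralateral 3-175. Whether the tag block joins the horns of 1 heifer was not tested. With the tag as a replicate block, 18, 19, 12 and 7 members passed as higher on days 5, 7, 13 and 16. Over all genes 2209, 1378, 731 and 614 were higher in that fit. As most tags did not match across the horns, the block may join libraries of different heifers. Its counts, also that for the average over days, are therefore no check of a paired comparison. On day 16, CEP120 (adjusted p = 0.0602, edgeR) and CEP68 (adjusted p = 0.0637) were among those that missed the threshold with the block.

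The counting limits are set by depth: CEP55 and CEP162 had as few as 17 and 22 reads in a library, and CEP55 had standard errors of 0.45 to 0.51 within a day or step. How reads were shared between the 2 entries of CEP162 and whether the counting used the strand of the stranded kit are not given in the sources used here, so a gene that overlaps another on the other strand is uncertain.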
